A study of Homo sapiens with 9 samples.

Results

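The semaphorin, plexin, neuropilin, ephrin and Eph receptor families hold guidance cues and their receptors. In the count table, 53 of the 22605 features belonged to them. The families were chosen with earlier results of these data known. Every gene whose symbol matched was taken: 20 semaphorins, 9 plexins, 2 neuropilins, 8 ephrins and 14 Eph receptors. Of these, 45 had enough counts to be tested among 13968 genes. The other 8 members, EPHA1, EPHA5, EPHA8, EPHA10, EPHB6, PLXNA4, SEMA5B and SEMA6D, had at most 11 counts in any library and are named only. Polyadenylated RNA was sequenced from A375, a human melanoma cell line long in use, which carries an activating BRAF mutation. The cells had been given Salvianolic acid B (SalB), a phenolic compound of Salvia miltiorrhiza root, at 100 µM or 200 µM for 48 h, or had been left untreated as control. Each group held 3 libraries, which the labels call biological replicates of 1 cell line in 1 batch.

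Semaphorins are secreted or membrane-bound ligands that act through plexins, whose intracellular part is a GTPase-activating domain for small G proteins. The secreted class 3 semaphorins mostly need a neuropilin as the ligand-binding subunit of the receptor. Ephrins are membrane-bound, the A type through a lipid anchor and the B type through a transmembrane segment, and they bind Eph receptor tyrosine kinases on touching cells, with signals running into both cells. Neural crest cells, from which melanocytes descend, are steered by these families during migration, and EPHA2 in particular is studied in melanoma.

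Library depth ranged between 27348621 and 30629685 counts over the 9 libraries. The third 200 µM library stood apart: mitochondrial mRNAs took 4.75% of its counts, against 1.83% and 1.87% in the other 200 µM libraries. GC-rich genes were also low against GC-poor genes in that library, with a log2 gap of -0.31 relative to the control mean. This gap was 0.48 and 0.96 in the first and second 200 µM libraries, 0.69 to 0.93 at 100 µM and -0.16 to 0.16 in control. Values without the third 200 µM library are given where a call against control changes. Of the melanocytic markers, SOX10 stood at 323 to 361 CPM (counts scaled to library size) and MITF at 27.0 to 31.5 CPM in control. At both doses SOX10 was above and MITF below every control library. The pigment genes TYR, PMEL and MLANA were under 1 CPM in all 9 libraries. DCT and TYRP1 were highest in the third 200 µM library, at 1.31 and 1.55 CPM. In control the line was thus melanocytic by its regulators, with little RNA of its pigment genes. Of the markers of other cell types, 2 of 7 for leukocytes, 3 of 7 for epithelium, 0 of 5 for endothelium, 5 of 7 for fibroblasts and 3 of 6 for neurons averaged over 1 CPM in control, while PTPRC, CD3E, CDH5 and EPCAM were at or near 0 in all 9 libraries. The summed leukocyte list stood at 21.6 to 25.2 CPM in control, 18.1 to 20.2 CPM at 100 µM and 59.2 to 84.6 CPM at 200 µM, of which the lysosomal gene CD68 made up 55.3 to 82.8 CPM at 200 µM. The epithelial sum was 235 to 244 CPM in control, 311 to 344 CPM at 100 µM and 299 to 396 CPM at 200 µM, led by KRT18 and KRT8. The endothelial sum was 1.59 to 1.92, 1.52 to 2.20 and 3.26 to 3.38 CPM in the same order, the fibroblast sum 47.2 to 51.2, 73.8 to 77.6 and 41.5 to 45.3 CPM, and the neuronal sum 215 to 242, 237 to 251 and 241 to 384 CPM. All 5 markers of dedifferentiated melanoma were above 1 CPM in control. Their summed level was 561 to 583 CPM in control, 1506 to 1647 CPM at 100 µM and 714 to 805 CPM at 200 µM. The sum was led by TNC, at 370 to 381 CPM in control, 1134 to 1273 CPM at 100 µM and 332 to 371 CPM at 200 µM. AXL and NGFR were above every control library at both doses, NES at 100 µM only and EGFR at 200 µM only. The part of these lists in the results below was not tested. In bulk RNA, fewer cells of a kind and less RNA per cell cannot be told apart.

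At 100 µM, far more members rose than fell. The quasi-likelihood test of edgeR called 22 of the 45 tested members higher and 3 lower than control (adjusted p under 0.05 over all 13968 genes), or 48.9% and 6.67% of them. Among all genes tested, 18.9% were higher and 18.2% lower at 100 µM, 37.1% in all. The median log2 fold change of the members was 0.56, against -0.01 over all genes. A change of at least 1 on the log2 scale was called for 10 members upward and 2 downward, against a background of 4.81% and 3.09%. The third 200 µM library enters this comparison only through the gene filter, scaling and spread shared by all libraries. Leaving it out gave 30 members higher and 5 lower.

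At 200 µM the directions were more mixed. Here 14 members were higher and 8 lower than control, or 31.1% and 17.8%, where 19.8% and 17.5% of all genes tested were higher and lower, 37.3% in all. The median of the members was 0.12, against 0.00 over all genes. Changes of at least 1 on the log2 scale numbered 5 upward and 2 downward, with 5.38% and 3.95% among all genes. Without the first 200 µM library the count of lower members was 5, and without the third it was 10.

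Set directly against 100 µM, the 200 µM libraries had 7 members higher and 21 lower, 15.6% and 46.7%, where 22.4% and 21.9% of all genes tested were called in these directions, 44.4% in all. The median was -0.50, against -0.01 over all genes. Changes of at least 1 on the log2 scale numbered 2 upward and 13 downward, with a background of 7.07% and 6.72%. After correction for GC content and gene length the split was 13 higher and 21 lower. The count of higher members was 4 without the second 100 µM library and 11 without the third 200 µM library.

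Because both doses were compared with the same control libraries, the patterns over the 2 doses are given as counts of members. There were 9 members higher than control at both doses: EFNB2, EFNB3, EPHA2, EPHB1, EPHB2, NRP2, PLXNA1, PLXNB2 and PLXND1. A further 9 were higher at 100 µM and not called at 200 µM, 4 were higher at 100 µM and lower at 200 µM, and 2 were lower at 100 µM and higher at 200 µM. SEMA3D alone was called lower at both. At 200 µM only, 3 members were called higher and 3 lower, and 14 members were called at neither dose. Of all 13968 genes tested, 7.64% were higher at both doses, 9.1% higher at 100 µM alone, 2.16% higher then lower, 2.77% lower then higher, 5.99% lower at both, 9.35% and 9.4% higher and lower at 200 µM alone, and 44.2% called at neither.

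**Figure D1:**
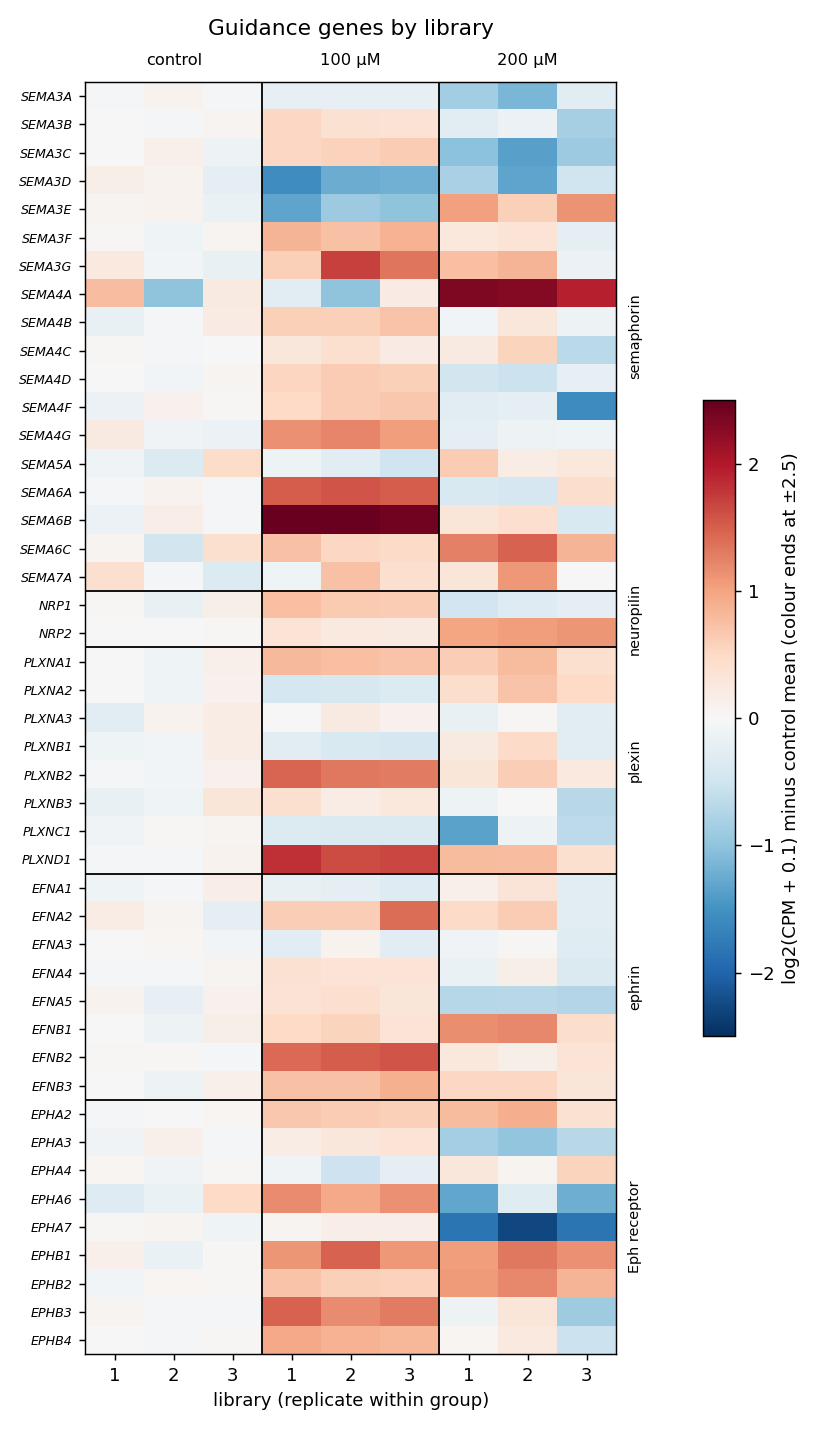
Levels of the 45 tested guidance genes in the 9 libraries (columns: control, 100 µM, 200 µM) as log2(CPM + 0.1) minus the mean of the control libraries, grouped by family (rows); the colour scale ends at ±2.5 log2 units. The 100 µM columns are mostly above control, as with SEMA6B and PLXND1, and EPHA7 is low in the 200 µM columns.

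**Figure D2:**
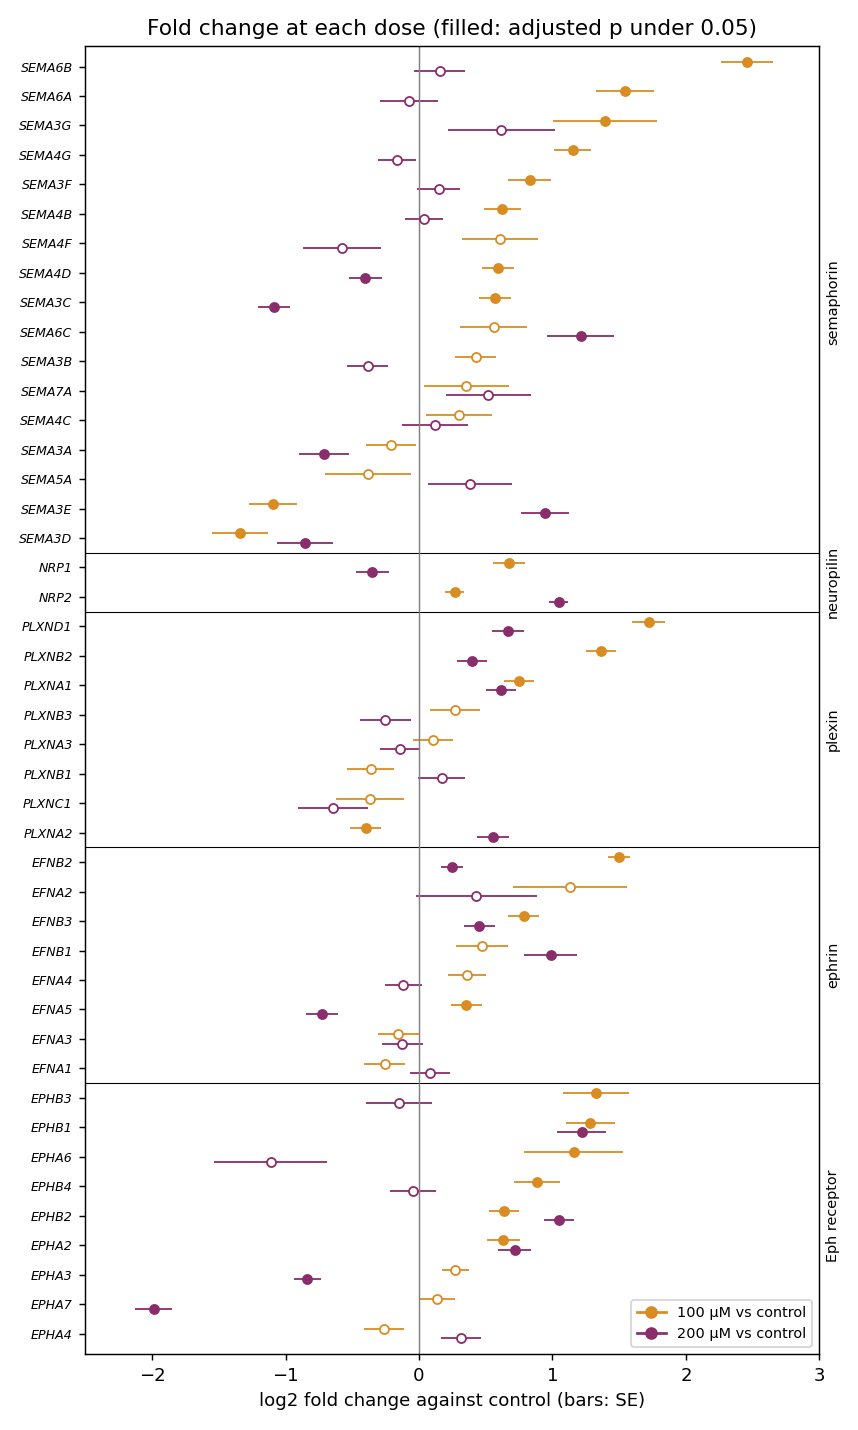
Log2 fold change against control (x axis) of the tested guidance genes (rows) at 100 µM and 200 µM; points are edgeR estimates, bars are SE and filled points were called (adjusted p under 0.05). SEMA4A, with 0 to 25 counts per library, is left out of the plot; 22 members were called higher at 100 µM and 14 at 200 µM.

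Promoter sequence is shown for 5 members as examples of patterns in the main calls: EFNB2, higher at both doses, EPHB4 and EPHB3, higher at 100 µM, EFNA5, higher at 100 µM and lower at 200 µM, and SEMA3D, the only member lower at both. The calls of EFNB2 at 200 µM (log2 fold change 0.25) and of EFNA5 at 100 µM (0.35) were each lost in several alternatives. Each of the 5 members has a single RefSeq start in the promoter set used. It lies 0 bases from the GENCODE gene start for EFNB2, 2 for EPHB4, 1 for EPHB3, 42 for EFNA5 and 201 for SEMA3D. No limit on this distance was set. Each line gives the 250 bases before the RefSeq start, 5′ to 3′ on the strand of the gene, from RefSeq on GRCh38.p14, and capitals mark the GC box GGGCGG or its reverse complement CCGCCC. The windows are chr13:106535663-106535912 (minus strand) for EFNB2, chr7:100827524-100827773 (minus) for EPHB4, chr3:184561535-184561784 (plus) for EPHB3, chr5:107670938-107671187 (minus) for EFNA5 and chr7:85187057-85187306 (minus) for SEMA3D.
EFNB2: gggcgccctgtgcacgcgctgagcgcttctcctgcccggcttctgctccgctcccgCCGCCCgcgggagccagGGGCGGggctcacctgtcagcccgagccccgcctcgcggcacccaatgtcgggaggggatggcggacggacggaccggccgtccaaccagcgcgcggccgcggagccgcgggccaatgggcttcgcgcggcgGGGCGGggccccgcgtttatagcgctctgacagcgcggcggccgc
EPHB4: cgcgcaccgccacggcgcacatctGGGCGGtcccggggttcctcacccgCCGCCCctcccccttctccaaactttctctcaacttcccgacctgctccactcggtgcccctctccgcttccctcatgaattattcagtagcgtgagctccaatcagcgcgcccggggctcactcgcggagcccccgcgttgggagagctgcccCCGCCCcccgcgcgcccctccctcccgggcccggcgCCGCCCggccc
EPHB3: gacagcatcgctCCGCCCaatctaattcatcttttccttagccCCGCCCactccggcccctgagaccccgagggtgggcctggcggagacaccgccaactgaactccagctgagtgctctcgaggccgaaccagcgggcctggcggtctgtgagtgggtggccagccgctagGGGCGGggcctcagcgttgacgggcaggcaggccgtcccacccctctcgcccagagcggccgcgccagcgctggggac
EFNA5: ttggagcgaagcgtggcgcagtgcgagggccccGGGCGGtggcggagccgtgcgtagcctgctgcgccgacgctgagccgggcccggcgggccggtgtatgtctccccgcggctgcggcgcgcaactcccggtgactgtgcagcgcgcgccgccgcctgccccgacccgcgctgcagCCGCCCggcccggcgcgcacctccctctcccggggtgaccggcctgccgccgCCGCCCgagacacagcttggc
SEMA3D: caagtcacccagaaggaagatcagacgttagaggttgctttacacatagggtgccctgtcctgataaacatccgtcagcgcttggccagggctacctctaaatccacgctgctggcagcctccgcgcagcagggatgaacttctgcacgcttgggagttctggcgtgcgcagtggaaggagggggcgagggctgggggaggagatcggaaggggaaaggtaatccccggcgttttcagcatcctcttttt
The windows of EFNB2, EPHB3 and EFNA5 held 3 GC boxes each, that of EPHB4 held 4 and that of SEMA3D held 0. GC content was 78.4%, 72.8%, 70.0% and 79.6% in EFNB2, EPHB4, EPHB3 and EFNA5, and 57.6% in SEMA3D. The EPHB4 window overlaps the SLC12A9 gene on the plus strand, and the RefSeq start of SEMA3D is 201 bases upstream of its GENCODE start.

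Most promoter windows of the members held a GC box. A RefSeq promoter was found for 40 of the 45 tested members, with 62 windows in all, and 75.8% of these windows held a GC box on either strand, against 42.6% of all 34788 promoter windows of the same 250 bases. The median GC content over windows was 67.0% for the members and 58.0% for all promoters. AP-1 sites (TGANTCA) were in 1.61% of member windows and 6.59% of all windows, the hypoxia core ACGTG in 16.1% and 18.5%, and the TEAD motif GGAATG in 11.3% and 11.9%. None of these last 3 motifs was in the 5 windows printed above.

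Per length of exon, 4 genes stood above the others in control cells. The level, in CPM per kilobase, was 21.8 ± 1.89 for SEMA3C, 19.7 ± 0.902 for SEMA3B, 19.1 ± 0.533 for EPHA2 and 17.8 ± 0.940 for SEMA3A (SD, n = 3 each). The ranges of neighbours in this order overlapped among these 4, and all 4 lay above EFNA1, the next at 8.17 ± 0.827, whose range overlapped that of EPHA3 at 7.44 ± 0.548. With the longest transcript as the length, SEMA3B came before SEMA3C. The top 4 held 44.5% of the summed member level in control, 40.3% at 100 µM and 38.2% at 200 µM. By exon length SEMA3C was first at 100 µM, at 32.4 CPM per kilobase, where SEMA3B led by the longest transcript (46.4 against 39.3), and EPHA2 was first by either length at 200 µM, at 31.5 CPM per kilobase, while SEMA3C stood at 10.3 there. As a share of all counts, the 53 members together took 0.109% to 0.114% in control, 0.165% to 0.167% at 100 µM and 0.0980% to 0.120% at 200 µM.

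**Figure D3:**
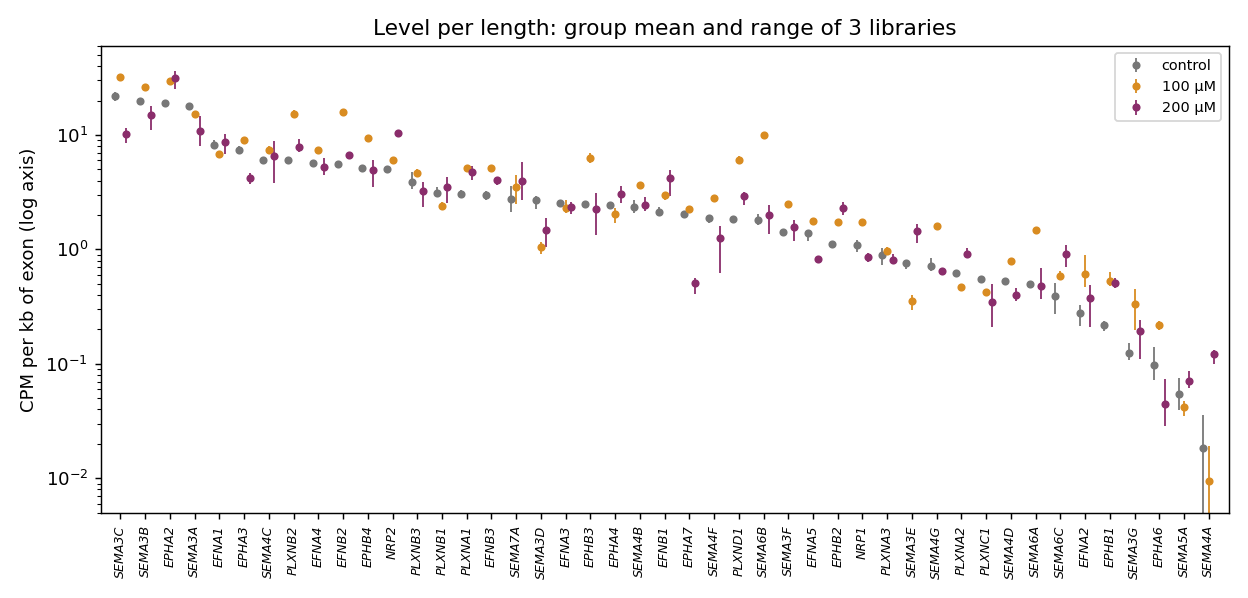
Level of the guidance genes in CPM per kilobase of exon (log axis) in control, 100 µM and 200 µM, genes ordered by their control level; points are means of 3 libraries and bars span the lowest to the highest library. SEMA3C, SEMA3B, EPHA2 and SEMA3A lead in control, between 17.8 and 21.8.

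Among the ligands, the secreted class 3 semaphorins split in direction at both doses, as did all genes tested. Of the 7 class 3 genes tested, 3 were higher and 2 lower at 100 µM, where 18.9% and 18.2% of all genes were. At 200 µM 1 was higher and 3 lower, where 19.8% and 17.5% of all genes were. SEMA3C, which binds both neuropilins and is known for its part in forming the cardiac outflow tract, had 137, 148 and 125 CPM in control, 194, 203 and 212 CPM at 100 µM and 67.3, 53.2 and 72.4 CPM at 200 µM. The 100 µM libraries lay above and the 200 µM libraries below every control library. Its log2 fold change was 0.57 ± 0.12 at 100 µM (SE, edgeR adjusted p = 0.0054), -1.09 ± 0.12 at 200 µM (adjusted p = 0.00018) and -1.66 ± 0.12 for 200 µM against 100 µM (adjusted p = 1e-05).

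SEMA3E, which can signal through PLXND1 without a neuropilin, ran the opposite way. It had 6.65, 6.75 and 5.67 CPM in control, 2.47, 3.34 and 3.11 CPM at 100 µM and 13.1, 9.61 and 14.0 CPM at 200 µM, so the 3 groups did not overlap, with 100 µM lowest and 200 µM highest. The log2 fold change was -1.09 ± 0.18 at 100 µM (edgeR adjusted p = 0.0018), 0.94 ± 0.18 at 200 µM (adjusted p = 0.0029) and 2.04 ± 0.18 between the doses (adjusted p = 3.2e-05). SEMA3C, SEMA3E and PLXND1 were called in all 3 comparisons under the alternatives tried other than the minimum size of 1. After GC correction the values at 100 µM were 0.89 for SEMA3C and -0.71 for SEMA3E.

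SEMA3D, a secreted ligand with roles in heart and vessel patterning, had 23.8, 23.0 and 18.3 CPM in control, 7.29, 9.02 and 9.34 CPM at 100 µM and 12.3, 8.55 and 15.2 CPM at 200 µM. All treated libraries lay below all control libraries, and the doses overlapped. It fell by 1.34 ± 0.21 on the log2 scale at 100 µM (edgeR adjusted p = 0.0013) and by 0.85 ± 0.21 at 200 µM (adjusted p = 0.011). SEMA3A, the growth-cone-collapsing ligand of NRP1 and A-type plexins, had 162, 177 and 162 CPM in control, 144, 143 and 145 CPM at 100 µM and 91.2, 75.3 and 138 CPM at 200 µM. The third 200 µM library lay close to the 100 µM libraries and the other 2 were far lower. The fall at 200 µM was called, at -0.71 ± 0.19 (edgeR adjusted p = 0.015), and the call was lost without control replicate 2 or 200 µM replicate 1. At 100 µM the value was -0.21 ± 0.19 (adjusted p = 0.41); it was called at -0.18 without the third 200 µM library, and after GC correction it was called with the opposite sign, at 0.25. Between the doses SEMA3A stood at -0.50 ± 0.19 (adjusted p = 0.053) and was called at -0.80 without the third 200 µM library.

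These 4 genes lie on chromosome 7 in the order SEMA3C, SEMA3E, SEMA3A, SEMA3D, within 4.44 Mb (gene gaps of 2441, 307 and 503 kb), and their longest transcripts are GC-poor, at 34.9% to 39.4%. By the main calls they took 4 different courses over the doses: higher then lower (SEMA3C), lower then higher (SEMA3E), lower at 200 µM only (SEMA3A) and lower at both (SEMA3D). The course of SEMA3A depended on the processing. At 100 µM it was called lower without the third 200 µM library (-0.18) and higher with GC correction (0.25). Its call at 200 µM was lost without control replicate 2 or 200 µM replicate 1.

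The other class 3 ligands were higher at 100 µM or not called. SEMA3B, studied as a tumour suppressor in lung cancer, had 113, 109 and 119 CPM in control, 162, 149 and 146 CPM at 100 µM and 94.7, 103 and 63.9 CPM at 200 µM. All 100 µM libraries lay above control and all 200 µM libraries below it, yet neither comparison with control passed the test, at 0.42 ± 0.15 for 100 µM (edgeR adjusted p = 0.057) and -0.38 ± 0.15 for 200 µM (adjusted p = 0.080). The doses differed by -0.81 ± 0.15 (adjusted p = 0.0027). Without the third 200 µM library SEMA3B was called in all 3 comparisons, at 0.45 for 100 µM and -0.19 for 200 µM against control. SEMA3F, a ligand of NRP2, rose at 100 µM by 0.83 ± 0.16 on the log2 scale (edgeR adjusted p = 0.0038). At 200 µM it stood at 0.15 (adjusted p = 0.51), and it was called at 0.33 without the third 200 µM library. SEMA3G, another NRP2 ligand, was low, at 0.762, 0.586 and 0.540 CPM in control, 0.996, 2.27 and 1.72 CPM at 100 µM and 1.12, 1.21 and 0.556 CPM at 200 µM. The 100 µM libraries lay above control but reached down to the range at 200 µM. Its rise of 1.39 ± 0.39 at 100 µM (edgeR adjusted p = 0.021) was lost when any of 4 of the 9 libraries was left out.

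The membrane-bound semaphorins held the largest rise at 100 µM. SEMA6B, a class 6 ligand that in mouse signals through plexin A4, had 44.4, 44.2 and 42.6 CPM at 100 µM, against 7.17, 8.96 and 7.77 CPM in control. At 200 µM it had 9.83, 10.7 and 6.04 CPM, a range that overlaps control. The rise at 100 µM was 2.46 ± 0.20 on the log2 scale, 5.49-fold (edgeR adjusted p = 3.6e-05), and 200 µM lay 2.30 ± 0.19 below 100 µM (log2 fold change -2.30, adjusted p = 2.2e-05). SEMA6A, a ligand of plexins A2 and A4, had 15.8, 16.4 and 15.9 CPM at 100 µM and 4.17, 4.06 and 7.47 CPM at 200 µM, against 5.34, 5.82 and 5.33 CPM in control. It likewise stood out at 100 µM, with a log2 fold change of 1.55 ± 0.22 (edgeR adjusted p = 0.00074) and of -1.62 for 200 µM against 100 µM (adjusted p = 0.00036). At 200 µM the values against control were 0.15 for SEMA6B and -0.07 for SEMA6A, neither called; without the third 200 µM library both were called, at 0.38 and -0.40. SEMA6C, also of class 6, had 5.48, 6.37 and 4.09 CPM at 200 µM, against 2.32, 1.58 and 2.97 CPM in control, without overlap. It rose there by 1.21 ± 0.25 (edgeR adjusted p = 0.0049). At 100 µM, with 3.76, 3.24 and 3.14 CPM, its value of 0.56 was not called (adjusted p = 0.11), and it was called at 0.58 without the third 200 µM library.

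Class 4 semaphorins are transmembrane ligands, several of which act on B-type plexins. Of the 6 tested, 3 were higher at 100 µM, where 18.9% of all genes tested were. At 200 µM 1 was higher and 1 lower, where 19.8% and 17.5% of all genes were. SEMA4G had 8.41, 8.95 and 7.94 CPM at 100 µM and 3.19, 3.45 and 3.49 CPM at 200 µM, against 4.44, 3.55 and 3.41 CPM in control. Only 100 µM stood apart, at 1.15 ± 0.14 on the log2 scale (edgeR adjusted p = 0.00035). Reads of SEMA4G and MRPL43 may be mixed, since 27.4% of the SEMA4G exons overlap MRPL43 on the opposite strand and the strand setting of the counting is unknown. SEMA4D, the ligand of PLXNB1 known on lymphocytes as CD100, had 10.8, 11.5 and 11.3 CPM at 100 µM and 5.37, 5.06 and 6.47 CPM at 200 µM, against 7.35, 7.13 and 7.83 CPM in control. It rose at 100 µM by 0.59 ± 0.12 (edgeR adjusted p = 0.0052) and fell by 0.40 ± 0.12 at 200 µM (adjusted p = 0.030). With correction for GC content and length the rise was 0.23 and not called. The fall was lost without any single control library and without 4 of the treated libraries in turn.

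SEMA4F had 9.50, 9.93 and 3.85 CPM at 200 µM, against 16.5, 18 and 18.6 CPM at 100 µM. Control libraries had 10.5, 12.5 and 11.8 CPM, between the doses. The doses differed by -1.18 ± 0.29 (edgeR adjusted p = 0.0096), while neither dose differed from control past the test (adjusted p = 0.13 and 0.15); at 100 µM SEMA4F was called at 0.63 without the third 200 µM library. SEMA4A, which acts in retina and immune cells, was almost silent in control, with 7, 0 and 4 counts, and had 2, 0 and 4 counts at 100 µM. At 200 µM it had 25, 25 and 17 counts, above all other libraries but still under 1 CPM. The log2 fold change was 2.67 ± 0.76 against control (edgeR adjusted p = 0.022), lost without control replicate 3 or 200 µM replicate 1, and 3.59 ± 0.83 against 100 µM (adjusted p = 0.0072). SEMA4B rose by 0.62 ± 0.14 at 100 µM (edgeR adjusted p = 0.0076), which was not called after GC correction, and at 200 µM stood at 0.04. SEMA7A, the lipid-anchored ligand of PLXNC1, and SEMA5A were not called in any comparison. Nor was SEMA4C, the PLXNB2 ligand, which without the third 200 µM library was called higher at both doses, at 0.32 for 100 µM and 0.42 for 200 µM.

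**Figure D4:**
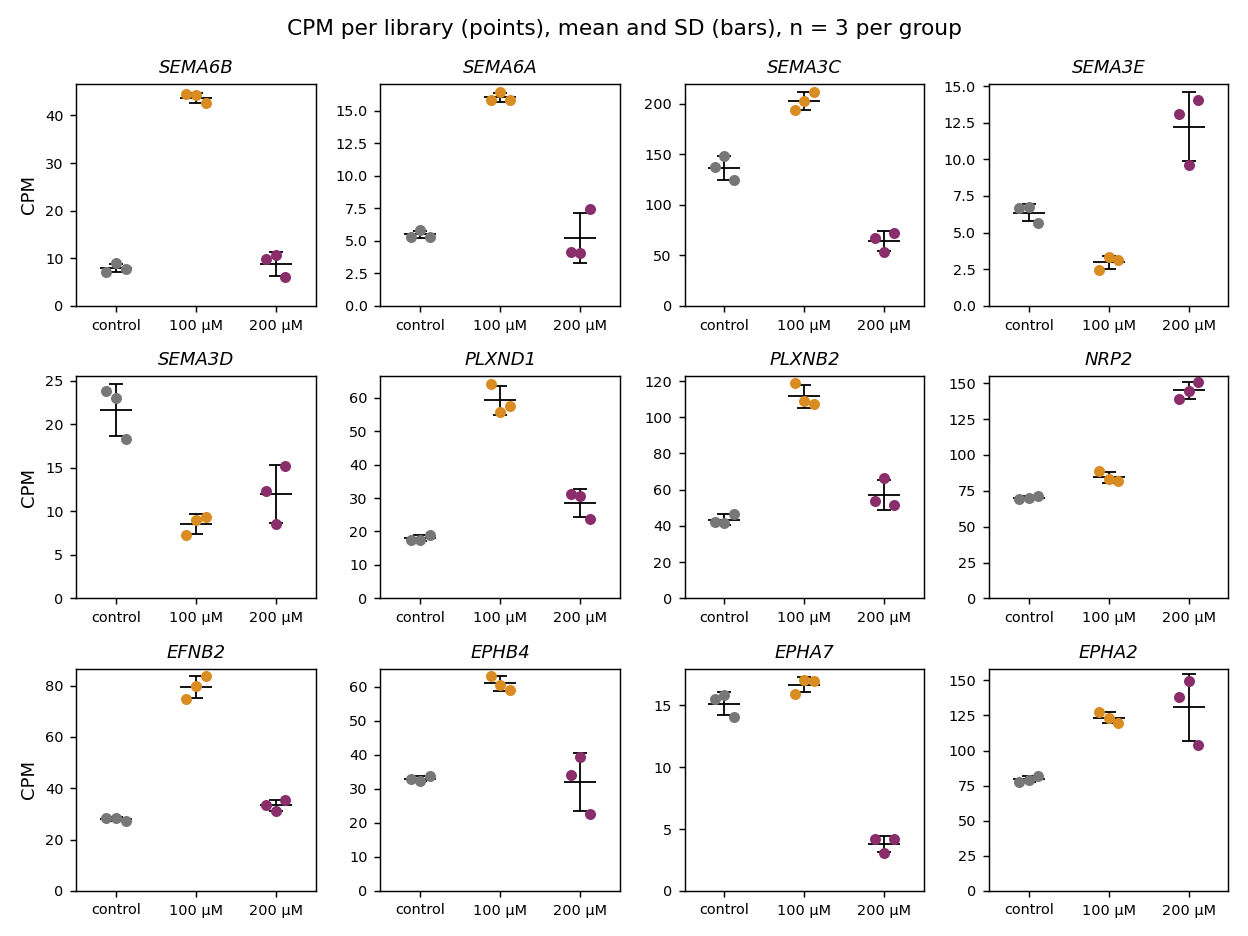
Level in each of the 3 libraries per group, in CPM (y axis, own scale per gene), for 12 guidance genes at control, 100 µM and 200 µM; points are libraries, and dashes with bars are mean and SD. SEMA6B and SEMA6A are high at 100 µM, SEMA3C and SEMA3E move in opposite directions, NRP2 is highest at 200 µM, and EPHA7 is low at 200 µM.

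Among the semaphorin receptors, the largest rises were in PLXND1 and PLXNB2. PLXND1, the receptor of SEMA3E in vessel patterning, had 64.1, 55.8 and 57.6 CPM at 100 µM, against 17.5, 17.4 and 19.0 CPM in control. At 200 µM it had 31.2, 30.7 and 23.7 CPM, also above every control library and below every 100 µM library. The log2 fold change was 1.72 ± 0.12 at 100 µM (edgeR adjusted p = 2.1e-05), 0.67 at 200 µM (adjusted p = 0.0025) and -1.05 between the doses (adjusted p = 0.00013). At 100 µM this receptor was thus higher and its ligand SEMA3E lower than control, and at 200 µM both were higher. PLXNB2, a receptor of SEMA4C, had 119, 109 and 107 CPM at 100 µM and 53.6, 66.7 and 51.4 CPM at 200 µM, against 42.1, 41.5 and 46.8 CPM in control. The groups did not overlap, with log2 fold changes of 1.36 ± 0.11 at 100 µM (edgeR adjusted p = 4.4e-05) and 0.40 at 200 µM (adjusted p = 0.021). The smaller change at 200 µM was not called without control replicate 1 or 2.

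The A-type plexins, which pair with neuropilins as class 3 receptors, differed between members. PLXNA1 rose at both doses, by 0.75 on the log2 scale at 100 µM (edgeR adjusted p = 0.0011) and 0.62 at 200 µM (adjusted p = 0.0027). It had 58.6, 56.2 and 54.8 CPM at 100 µM and 51.7, 58.5 and 44.3 CPM at 200 µM, against 33.2, 31.1 and 36.5 CPM in control, so the doses overlapped. With GC correction the rise at 100 µM was 0.40, and with GC content and length corrected it was 0.22 at 100 µM and 0.40 at 200 µM, all called. PLXNA2, a receptor of SEMA6A, had 6.29, 6.49 and 6.71 CPM at 100 µM and 11.6, 14.1 and 12.1 CPM at 200 µM, against 8.59, 7.96 and 9.18 CPM in control. It fell by 0.40 ± 0.12 at 100 µM (edgeR adjusted p = 0.026) and rose by 0.56 at 200 µM (adjusted p = 0.0055), with 0.96 between the doses (adjusted p = 0.00022). The fall at 100 µM was lost in 5 of the leave-one-out fits, those without control replicate 1 or 3 or any 100 µM library. PLXNA3, PLXNB3 and PLXNC1 were not called in any comparison, and 20.4% of the PLXNB3 exons overlap SRPK3 on the same strand. Without the second 200 µM library PLXNC1 was called at -1.0 for 200 µM against control and -0.65 between the doses, and PLXNB3 at -0.69 between the doses; PLXNB3 was also called there, at -0.52, without control replicate 3. PLXNB1 was called only between the doses, at 0.53 (adjusted p = 0.035); without the second 200 µM library this was 0.33 and not called, and the call was lost in 7 of the 9 leave-one-out fits. Without the third 200 µM library PLXNB1 was called against control as well, at -0.34 for 100 µM and 0.37 for 200 µM. At 100 µM it was also called after GC correction, at -0.72, and after GC and length correction, at -0.87.

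Both neuropilins were called in all 3 comparisons, and at 200 µM they went in opposite directions. NRP2, a receptor subunit for SEMA3F and for VEGF-C, had 139, 145 and 151 CPM at 200 µM and 88.7, 83.3 and 81.5 CPM at 100 µM, against 69.3, 69.7 and 71.5 CPM in control. The 3 groups did not overlap, and the level followed the order of the doses. It rose by 1.05 ± 0.07 at 200 µM (edgeR adjusted p = 1.2e-05), by 0.27 ± 0.07 at 100 µM (adjusted p = 0.016), and by 0.78 between the doses (adjusted p = 3.3e-05). The rise at 100 µM was not called without control replicate 1 or 2 or 100 µM replicate 1, and with correction for GC content and length it was -0.05. NRP1, a receptor subunit for SEMA3A and VEGF-A, had 21.1, 19.6 and 19.3 CPM at 100 µM and 8.92, 9.90 and 10.6 CPM at 200 µM, against 12.8, 10.9 and 13.8 CPM in control. It rose by 0.68 ± 0.12 at 100 µM (edgeR adjusted p = 0.0025) and lay 1.02 lower at 200 µM than at 100 µM (log2 fold change -1.02, adjusted p = 0.00016). The fall against control at 200 µM, by 0.35 ± 0.12 (adjusted p = 0.048), was lost in 7 of the 9 leave-one-out fits.

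Of the transmembrane B ephrins, 2 of 3 were higher at 100 µM and 3 of 3 at 200 µM. Of the lipid-anchored A ephrins, 1 of 5 was higher at 100 µM and 1 of 5 lower at 200 µM. Among all genes tested, 18.9% were higher at 100 µM, and 19.8% were higher and 17.5% lower at 200 µM. EFNB2, the ligand of EPHB4 and a marker of arterial endothelium, had 74.8, 79.8 and 83.5 CPM at 100 µM, against 28.5, 28.5 and 27.3 CPM in control. At 200 µM it had 33.6, 31.1 and 35.4 CPM, above every control library by a small margin. The log2 fold change was 1.5 ± 0.08 at 100 µM (edgeR adjusted p = 7.3e-06) and -1.25 for 200 µM against 100 µM (adjusted p = 6.5e-06). At 200 µM it was 0.25 ± 0.08 against control (adjusted p = 0.044), a call lost in 7 of the 9 leave-one-out fits. AL138689.2 on the opposite strand overlaps 26.2% of the EFNB2 exons.

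EFNB1, the X-linked B ephrin of craniofacial development, had 16, 16.4 and 9.69 CPM at 200 µM, against 7.0, 6.48 and 7.80 CPM in control. All 200 µM libraries were above control, the third by the least. It rose there by 0.99 ± 0.20 (edgeR adjusted p = 0.0042). At 100 µM, with 10.1, 10.5 and 8.95 CPM, it stood at 0.47 (adjusted p = 0.089), and it was called at 0.50 without the third 200 µM library. EFNB3, known in the midline of the nervous system, rose by 0.78 at 100 µM (edgeR adjusted p = 0.00089) and by 0.45 at 200 µM (adjusted p = 0.013), the second call being lost without control replicate 2. EFNA5, a repellent of retinal axons, had 10.1, 10.4 and 9.66 CPM at 100 µM and 4.75, 4.77 and 4.69 CPM at 200 µM, against 8.35, 6.82 and 8.41 CPM in control. The 3 groups did not overlap. It fell by 0.73 ± 0.12 at 200 µM (edgeR adjusted p = 0.0015) and differed by -1.09 between the doses (adjusted p = 0.00011); its rise of 0.35 ± 0.12 at 100 µM (adjusted p = 0.041) was lost without any single control or 100 µM library and without 200 µM replicate 1.

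EFNA1, the A ephrin with high affinity for EPHA2, had 18.2, 17.4 and 16.4 CPM at 100 µM and 22.5, 26 and 17.3 CPM at 200 µM, against 19.2, 19.9 and 23.1 CPM in control. It was not called at either dose, at -0.26 ± 0.15 for 100 µM (edgeR adjusted p = 0.21) and 0.08 ± 0.15 for 200 µM (adjusted p = 0.71). After GC correction the value at 100 µM was -0.54 and called. EFNA2, EFNA3 and EFNA4 were not called against control either. Without the third 200 µM library EFNA2 was called at 1.16 and EFNA4 at 0.38 for 100 µM, and EFNA4 at 0.38 also without the second. EFNA2 had few reads, with 9, 8 and 6 counts in control and 14, 14 and 26 counts at 100 µM. Between the doses EFNA4 was called at -0.48 (edgeR adjusted p = 0.021), lost in 4 of the 9 leave-one-out fits. Reads may be shared here, since EFNA3 and EFNA4 overlap AL691442.1 on the same strand, over 44.7% and 15% of their exons.

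All 4 tested EphB receptors rose at 100 µM, and 2 of them, EPHB1 and EPHB2, at 200 µM. Among all genes tested, 18.9% were higher at 100 µM and 19.8% at 200 µM. EPHB3, an EphB receptor of intestinal crypts, had 31.6, 25.8 and 27.9 CPM at 100 µM and 10.4, 14.1 and 6.12 CPM at 200 µM, against 11.9, 11.1 and 11 CPM in control. The 200 µM libraries spread on both sides of control. The rise at 100 µM was 1.33 ± 0.25 (edgeR adjusted p = 0.0032), and 200 µM stood at -1.48 ± 0.25 against 100 µM (adjusted p = 0.0013). EPHB4, the venous receptor of EFNB2, had 63.3, 60.6 and 59.1 CPM at 100 µM and 34.0, 39.2 and 22.6 CPM at 200 µM, against 32.8, 32.3 and 33.9 CPM in control. It followed the same course, at 0.89 ± 0.17 for 100 µM (edgeR adjusted p = 0.0037) and -0.05 for 200 µM (adjusted p = 0.86). EFNB2 and EPHB4, a ligand and its receptor, were thus both higher at 100 µM.

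EPHB2 was higher at 200 µM than at 100 µM. It had 29.2, 32.3 and 25.1 CPM at 200 µM and 23.1, 21.3 and 20.8 CPM at 100 µM, against 13.2, 14.4 and 14.2 CPM in control. The groups did not overlap, with log2 fold changes of 1.05 ± 0.11 at 200 µM (edgeR adjusted p = 0.00014), 0.64 at 100 µM (adjusted p = 0.0023) and 0.41 between the doses (adjusted p = 0.014), the last lost without 100 µM replicate 2 or 3. With GC content and length corrected the values were 0.22 at 100 µM and 0.65 between the doses. EPHB1 had 3.37, 4.41 and 3.34 CPM at 100 µM and 3.23, 3.95 and 3.46 CPM at 200 µM, against 1.66, 1.34 and 1.55 CPM in control. Its levels at the 2 doses overlapped, with 1.28 ± 0.18 at 100 µM (edgeR adjusted p = 0.00079) and 1.22 ± 0.18 at 200 µM (adjusted p = 0.00092).

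The EphA receptors held a rise at both doses, in EPHA2, and the largest fall among the members at 200 µM, in EPHA7. EPHA2, the EphA receptor with the highest level per length here, had 127, 123 and 120 CPM at 100 µM and 138, 150 and 104 CPM at 200 µM, against 77.9, 78.8 and 82.1 CPM in control. Every treated library was above every control library. The rise was 0.63 ± 0.12 at 100 µM (edgeR adjusted p = 0.0040) and 0.72 ± 0.12 at 200 µM (adjusted p = 0.0019), and both calls were kept in the alternatives tried other than the minimum size of 1. The rise at 100 µM was 0.31 with GC correction and 0.33 with GC and length correction. Between the doses EPHA2 was not called, at 0.09 (adjusted p = 0.60), and was called at 0.29 and 0.30 under these corrections. EPHA7, known for its part in cortical and retinal mapping, had 4.17, 3.06 and 4.21 CPM at 200 µM and 16, 17.1 and 17.0 CPM at 100 µM, against 15.5, 15.8 and 14.1 CPM in control. All 200 µM libraries were far below the others. It fell at 200 µM by 1.99 ± 0.14 on the log2 scale (edgeR adjusted p = 1.4e-05), with -2.13 ± 0.14 against 100 µM (adjusted p = 5.6e-06). At 100 µM its value was 0.14 (adjusted p = 0.44), and after GC correction 0.53 and called.

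EPHA3, a receptor of EFNA5, had 27.6, 25 and 30.8 CPM at 200 µM and 56.7, 60.1 and 62.9 CPM at 100 µM, against 46.8, 53.8 and 48.3 CPM in control. Only the 200 µM libraries were below control. It fell by 0.84 ± 0.10 at 200 µM (edgeR adjusted p = 0.00031) and by 1.11 against 100 µM (adjusted p = 3.7e-05); the value of 0.27 at 100 µM missed the test (adjusted p = 0.062), and it was called at 0.30 without the second or the third 200 µM library. EPHA6 was low, at 1.48, 1.23 and 1.43 CPM at 100 µM and 0.181, 0.463 and 0.199 CPM at 200 µM, against 0.450, 0.517 and 0.878 CPM in control. It differed between the doses by -2.27 ± 0.41 (edgeR adjusted p = 0.0019), and its rise of 1.16 ± 0.37 at 100 µM (adjusted p = 0.036) was lost in 5 of the 9 leave-one-out fits. At 200 µM EPHA6 was called at -1.68 against control without the second 200 µM library and not called with it, at -1.11 (adjusted p = 0.068). EPHA4 was called only between the doses, at 0.58 (adjusted p = 0.013), a call lost without the second 100 µM library.

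Against control, log2 fold changes were higher in genes of higher GC content, in the members as in all genes. The median GC content of the longest transcript was 58.2% for the 45 tested members and 48.3% over all genes tested. Across genes, which share the same 9 libraries and are not independent replicates, Spearman's rho between GC content and log2 fold change was 0.39 for the 45 members and 0.48 for 13874 genes at 100 µM, and 0.37 and 0.22 at 200 µM. Between the doses it was 0.0043 for the members and -0.22 for all genes. In each of 7 bands of GC content the median of the members at 100 µM was above that of all genes in the band, for example 0.62 for 15 members against 0.35 for all genes between 60% and 65% GC. Below 40% GC, the medians were -0.21 for 5 members and -0.39 for all genes. At 200 µM the members' median was above that of all genes in 3 of the 7 bands and below it in 4, with -0.85 against -0.20 below 40% GC. After correction for GC content the median of the members was 0.40 at 100 µM and -0.02 at 200 µM, and 24 members were called higher and 6 lower at 100 µM. With length corrected as well, the median at 100 µM was 0.23, with 22 higher and 5 lower.

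Several single values moved by over 1.5 times under these corrections or crossed the threshold. At 100 µM, GC correction gave 0.50 for EFNB3, 0.55 for EPHB4, 0.47 for SEMA3F and -0.80 for SEMA3D, all still called, and it gave calls for EPHA3 at 0.54 and EFNA3 at -0.50. With length as well, PLXNB2 stood at 0.90 and PLXNA2 at -0.80 there. At 200 µM, GC correction gave -0.55 for SEMA3D, and calls for SEMA3B at -0.53 and PLXNB3 at -0.39, while EFNB2, at 0.20, was not called. PLXNB2 at 200 µM was 0.24 with both corrections. Between the doses, GC correction gave -0.45 for SEMA3F, -0.36 for SEMA4B and -0.31 for EFNA4, while EFNB3, at -0.14, was not called, and new calls besides EPHA2 were EFNA1 at 0.51, EFNB1 at 0.70, SEMA6C at 0.90, SEMA3A at -0.74 and PLXNB3 at -0.28. With length as well, SEMA3B between the doses was -0.54 and PLXNB1 0.82. PLXNA1 was then called between the doses at 0.18, against -0.13 and not called without correction. Without the third 200 µM library, EFNA1 at 0.48, EFNB1 at 0.71, SEMA6C at 0.80 and EPHA2 at 0.22 were also called between the doses, and EFNB3 was not, at -0.28.

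**Figure D5:**
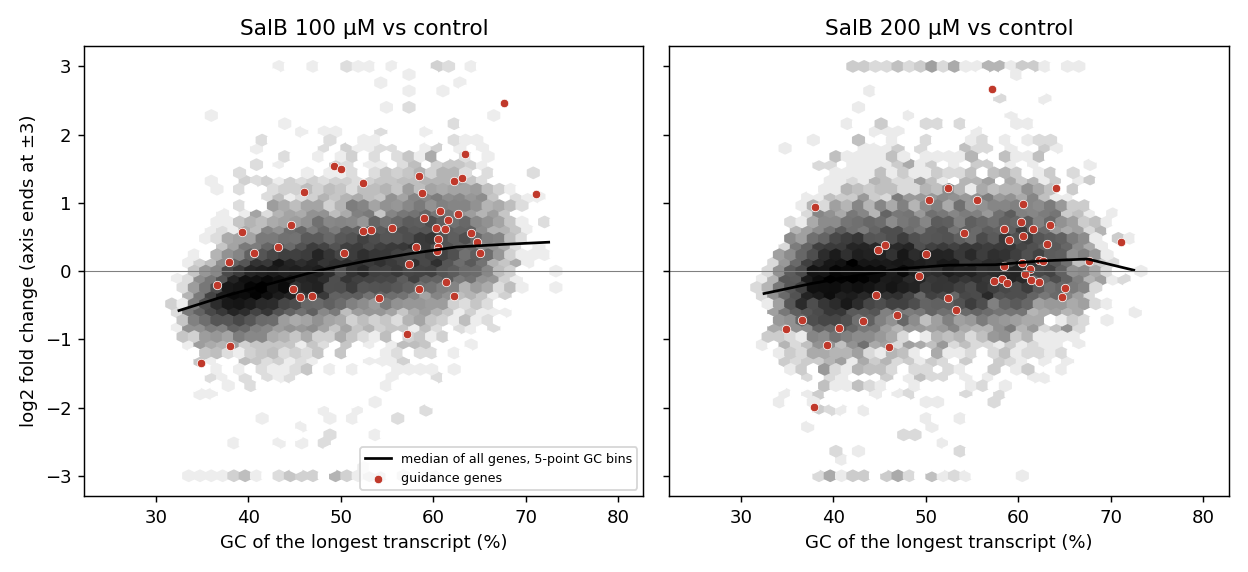
GC content of the longest transcript in percent (x axis) against log2 fold change (y axis) at 100 µM and 200 µM; shading counts all genes tested, the line is their median by GC content, and red points are the guidance genes. Members at high GC content are mostly above 0 at 100 µM, where Spearman's rho over the 45 members is 0.39.

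Genes that work with these ligands and receptors were taken from a list of 99, of which 80 were tested: co-receptors and adhesion partners, plexin effectors, Eph effectors, and other guidance ligands and receptors. At 100 µM 30 were higher and 12 lower than control, where 18.9% and 18.2% of all genes were, and at 200 µM 33 were higher and 7 lower, where 19.8% and 17.5% of all genes were. The medians on this list were 0.22 and 0.27, against -0.01 and 0.00 over all genes. Between the doses, 24 were higher and 22 lower at 200 µM, where 22.4% and 21.9% of all genes were. The Eph effectors had 8 of 23 higher and 0 lower at each dose, and the plexin effectors had 9 of 30 higher and 6 lower at 100 µM and 13 higher and 3 lower at 200 µM. The other guidance ligands and receptors had 10 of 17 higher and 1 lower at 100 µM, and 6 higher and 2 lower at 200 µM. Of the co-receptors, 3 of 10 were higher and 5 lower at 100 µM, and 6 were higher and 2 lower at 200 µM.

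The largest changes on that list differed between the doses. At 100 µM the bone morphogenetic protein co-receptor and neogenin ligand RGMA, at 4.66, 3.41 and 3.27 CPM against 0.624, 0.276 and 0.912 CPM in control, rose by 2.64 ± 0.40 (edgeR adjusted p = 0.0012). The netrin receptor UNC5C rose by 2.01 ± 0.25 at 100 µM (edgeR adjusted p = 0.00044) and fell by 1.42 ± 0.31 at 200 µM (adjusted p = 0.0068). KDR, the VEGF receptor that partners with neuropilins, fell by 1.93 ± 0.15 at 100 µM (edgeR adjusted p = 2.9e-05), and TIAM1, a RAC exchange factor that binds Eph receptors and ephrins, rose by 1.28 ± 0.08 (adjusted p = 9.8e-06). LINGO1, a subunit of the Nogo receptor complex, rose by 1.39 ± 0.25 (edgeR adjusted p = 0.0025).

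At 200 µM, RND1, a small G protein that binds plexin A1 and B1, had 18.3, 18.2 and 12.2 CPM, against 1.52, 1.27 and 1.15 CPM in control. It rose by 3.62 ± 0.25 (edgeR adjusted p = 1.3e-05), and at 100 µM it fell by 1.22 ± 0.27 (adjusted p = 0.0079). ABL2, a non-receptor tyrosine kinase that acts on the cytoskeleton, had 306, 279 and 286 CPM at 200 µM, against 58.3, 55.8 and 56.6 CPM in control, and was not called at 100 µM. It rose by 2.35 ± 0.07 (edgeR adjusted p = 3.1e-07). MICAL2, an actin-oxidising enzyme of the family that acts downstream of plexins, rose by 2.69 ± 0.44 (edgeR adjusted p = 0.0016), and the roundabout receptor ROBO4, 16.9% of whose exons overlap AP003501.1, by 2.28 ± 0.16 (adjusted p = 1.6e-05). PLXDC1, called lower at 200 µM (adjusted p = 0.040), had 0.109, 0 and 0 CPM there, against 0.277, 0.276 and 0.203 CPM in control, too few reads for a fold.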

How the data were processed

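Whole-number read counts per gene were available for 9 libraries, as the authors deposited them, not normalized. The submitters' processing notes name FastQC, HISAT2, featureCounts, DESeq2 and GRCh38; the annotation release and strand setting were not given in the sources used here. RNA was captured by its poly(A) tail, per the labels' protocols. Counts of genes with Ensembl identifiers were tested with edgeR 4.0.16 in R 4.3.3, using filterByExpr, TMM scaling and a robust quasi-likelihood fit of the 3 groups to all libraries (6 residual degrees of freedom). P-values were adjusted by Benjamini-Hochberg over 13968 genes in each comparison, with a threshold of 0.05. Each standard error was derived as the absolute log2 value over the square root of its F statistic. CPM was computed here from TMM-scaled library sizes, and level per length from the merged GENCODE v29 exon length. The p-values measure the spread between these libraries, since nothing in the labels says that the replicates were separate cultures. That spread was shared by the 3 groups although it was unequal. Chi-square per degree of freedom between pairs of libraries was 7.22 to 10.0 in control, 8.15 to 17.2 at 100 µM and 23.0 to 148 at 200 µM. With only the 2 groups compared, 25 members kept their call at 100 µM and 12 gained one. At 200 µM 18 kept theirs and 4 lost it. An exact permutation test of 3 against 3 libraries cannot go below a two-sided p of 0.1, so none was used.

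The members and lists were chosen with earlier results of these data known. Described in full were the members with a call whose log2 change was 1 or more in size and the 6 with the highest level per length; the rest are given by counts or examples, and the companion list by counts and its 5 largest called changes per dose. Exon overlaps with another gene were marked from 10% upward. The alternatives were RLE and total-count scaling, 2 other filters, DESeq2 1.42.0, only the 2 groups compared, a replicate block, correction for GC content or for GC content and length by a lowess trend (span 0.3), a minimum size of 1, and leaving out each library. A table of 100 features holds no member and was not used.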

Additional observations from a re-analysis of the deposited data

Results flagged for a closer look

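In 6 guidance genes the doses were called in opposite directions against control, 13.3% of the 45 tested, where 4.93% of all 13968 genes tested showed this. All 689 genes with such opposite calls were also called between the doses. The values between the doses therefore follow from the selection and add no support to it. The log2 fold change of 200 µM against 100 µM was -1.66 for SEMA3C, 2.04 for SEMA3E, -1.02 for NRP1, 0.96 for PLXNA2, -1.09 for EFNA5 and -0.99 for SEMA4D, all with an edgeR adjusted p of at most 0.00022. Of these 6, SEMA3C and SEMA3E were called in all 3 comparisons under the alternatives tried other than the minimum size of 1, and the others lost at least 1 of the calls against control in some alternative.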

How the results depend on the processing

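Under the alternatives tried, apart from the minimum size of 1, 18 of the 25 members called at 100 µM, 15 of the 22 at 200 µM and 23 of the 28 between the doses kept their call. Leaving out 1 library gave 18 to 30 members higher and 2 to 5 lower at 100 µM, 11 to 18 and 5 to 10 at 200 µM, and 4 to 11 and 19 to 23 between the doses. With a minimum size of 1 on the log2 scale, 10 were higher and 2 lower at 100 µM, 5 and 2 at 200 µM, and 2 and 13 between the doses. Lower members at 100 µM numbered 7 with only the 2 groups compared, 6 with GC correction, 5 with GC and length correction and 6 with the replicate block and GC correction; higher members between the doses numbered 11, 13 and 11 under the last 3. The replicate numbers do not pair the libraries (correlation of same-numbered deviations between -0.163 and 0.027); with the replicate block, 19 were higher and 2 lower at 100 µM, 12 and 6 at 200 µM, and 6 and 20 between the doses. Of the 60 pairs of a member and a comparison that were not called, 21 changed sign in some alternative. The values with a changed sign reached at most 0.33 in size, and 2 of them were called. Examples are SEMA3B at 100 µM (-0.012 with GC and length correction) and SEMA3A at 100 µM. SEMA3A stood at 0.25 with GC (called), 0.10 with GC and length, and 0.25 with block and GC. EFNA1 at 200 µM was -0.024 with GC and -0.024 with block and GC. On leaving out 1 library EFNA1 there ran from -0.062 to 0.24, lowest without 200 µM replicate 2. EPHA2 between the doses ran from -0.049 to 0.22 on leaving out 1 library, lowest without 200 µM replicate 2. PLXNA1 between the doses was 0.10, 0.18 and 0.094 under the 3 corrections, and 0.18 was called (edgeR adjusted p = 0.022). Among the called pairs, 1 changed sign: NRP2 at 100 µM, at -0.046 and not called with GC and length correction. The cause of these changes was not tested. Depth limits SEMA4A, SEMA3G, EPHA6, EFNA2 and the 8 untested members.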
